A study of Mus musculus with 18 samples.

Results

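The transcriptional response to bone cancer was compared between 2 tissues of the mouse, the colon and the spinal dorsal horn. For each gene, the change from sham to cancer in the dorsal horn was subtracted from the change from sham to cancer in the colon, within 1 model, so that a positive difference marks a gene that moved higher in the colon. Of 15410 gene symbols in the 2 count tables, 14770 were in both, and 14164 of these had enough counts to be tested. All mice were wild type (WT). The sham group was given IgG as control antibody, the cancer group had bone cancer and the same IgG, and a further group had bone cancer and was given nivolumab, an antibody against the checkpoint receptor PD-1. Each tissue and group had 3 libraries of total RNA. The 12 sham and cancer libraries made the comparison, and the 6 nivolumab libraries only contributed to the estimate of the spread. The sources used here do not give age, sex, the tumour cells or whether equally numbered libraries of the 2 tissues came from 1 mouse. Nothing in the labels states that the 3 libraries of a group were separate animals, so the p-values rest on a spread between libraries that may be only technical.

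The dorsal horn is the part of the spinal cord where sensory fibres, including those for pain from bone, form their first central synapses. It holds neurons, astrocytes, microglia and myelinating oligodendrocytes. The colon wall is lined by a fast-dividing epithelium that absorbs water and makes mucus, above a layer of immune cells, enteric neurons and smooth muscle. A tumour in bone can reach both tissues through circulating factors, such as cytokines and stress hormones, whereas nerve input from the bone ends in the cord. Whether a gene responds in both tissues or in 1 is the question that the difference of differences addresses.

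Defining genes of each tissue matched the labels. Epcam, an epithelial adhesion molecule, was at 1246 to 2165 CPM (counts scaled to the effective library size) in the colon libraries and at 0.222 to 1.25 CPM in the dorsal horn. Slc6a5, the transporter of glycinergic neurons, was at 0 to 0.262 CPM in colon and 440 to 599 CPM in dorsal horn. Total counts of the 12 libraries ran from 20896854 to 30803957. Replicates scattered more in the colon, with a biological coefficient of variation of 0.376 against 0.169 in the dorsal horn, and the joint model used 1 spread per gene. Some libraries stood apart. Genes of sensory ganglion neurons had a mean log2 CPM of 5.38 in dorsal horn sham 3 and 5.49 in cancer 3, against 1.59 to 1.88 in the other 4 sham and cancer libraries of the dorsal horn, and at 6.37 to 7.05 in the 3 dorsal horn nivolumab libraries, which enter the estimate of the spread. Colon sham 3 was low in smooth muscle genes, at a mean log2 CPM of 5.66 against 7.72 to 9.31 in the other colon sham and cancer libraries. It was also low in neuronal synapse genes (0.66 against 2.68 to 4.93). The colon nivolumab libraries were at 6.56 to 7.27 in the first list and 2.74 to 3.65 in the second. Colon cancer 2 was low in cell cycle genes (2.85 against 5.22 to 6.03), and so was colon nivolumab 1 (3.73).

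Across the 14164 genes, the measured changes of the 2 tissues resembled each other little. The log2 changes of the colon and the dorsal horn had a Pearson correlation of 0.11 and a Spearman correlation of 0.109 across genes, and 53.9% of genes had the same sign. The range was 0.0720 to 0.121 for Pearson's r when each library was left out in turn. Genes within a tissue share their libraries and are not independent replicates, so these values are descriptions. For the 10613 genes whose mean log2 CPM was 1 or more in each tissue, the median absolute change was 0.234 in colon and 0.101 in dorsal horn. Replicate scatter was also larger in the colon (coefficient of variation 0.376 against 0.169). Its part in the size of these changes and in the low correlation was not tested. The plot of colon against dorsal horn changes shows most genes spread along the colon axis.

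**Figure D1:**
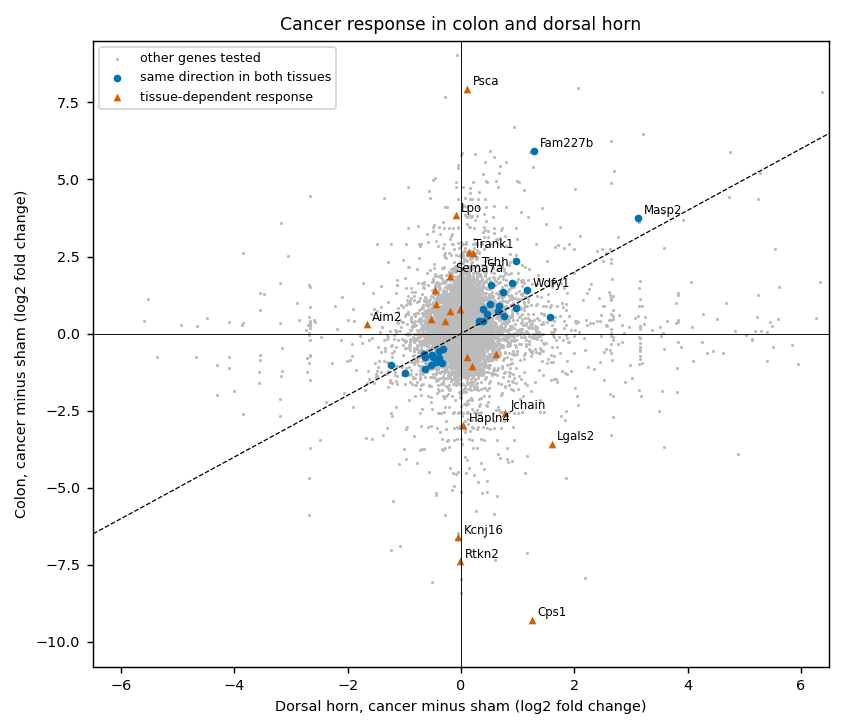
Change from sham to cancer of each tested gene in the dorsal horn (horizontal axis, log2 fold change) and in the colon (vertical axis, log2 fold change), with 1 point per gene and equal changes on the dashed line. The 21 plotted genes with a tissue-dependent response (triangles, 1 not shown) lie mostly far from the horizontal axis and near the vertical one, the 30 genes that moved the same way (circles) lie nearer the dashed line, and 7 genes fall outside the axes.

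A tissue-dependent response was called where the difference of differences had an adjusted p under 0.05, by edgeR's quasi-likelihood test with Benjamini-Hochberg adjustment over all genes tested, the source of every adjusted p given here. There were 22 such genes, 0.155% of those tested. Of these, 12 were higher in the colon than in the dorsal horn relative to sham (0.0847%) and 10 were lower (0.0706%). Without adjustment, 1538 genes had p under 0.05, 10.9% of those tested. The change was the larger one in the colon for 20 of the 22, and in the dorsal horn for 2, Aim2 and Rhog. Cancer and sham libraries did not overlap in the colon for 21 of the 22, against 18.2% of all tested genes, and in the dorsal horn for 8, against 16.3%. The genes were called from these same libraries, which itself raises such shares, so the counts are no separate evidence. In bulk tissue, fewer cells of a type and less RNA per cell cannot be told apart.

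In 5 genes the change went in opposite directions in the 2 tissues, with an unadjusted p under 0.05 in each. Cd38 encodes an ectoenzyme that consumes NAD and is found on immune cells and glia (chromosome 5, 43868553 to 43912375 in GRCm38, as for all positions given). Its colon levels were 463, 330 and 441 CPM in sham and 879, 743 and 789 CPM in cancer. The dorsal horn had 51.6, 53.5 and 53.7 CPM in sham and 34.0, 37.2 and 45.6 CPM in cancer. All 3 cancer libraries were thus above sham in colon and below it in dorsal horn. The log2 changes were 0.97 and -0.44, a difference of 1.41 (SE 0.23, adjusted p = 0.0318).

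Rhog, a small GTPase that acts on the actin cytoskeleton (chromosome 7, 102239123 to 102256054), showed the same pattern. Sham and cancer levels were 53.3, 51.1 and 56.1 against 65.5, 80.5 and 76.1 CPM in the colon. The dorsal horn went the other way, with 113, 107 and 90.6 against 77.7, 73.8 and 63.6 CPM. The difference was 1.00 on the log2 scale (SE 0.17, adjusted p = 0.0335). Fkbp1a, the FK506-binding protein that also regulates calcium release channels (chromosome 2, 151542483 to 151561692), had changes of 0.40 in colon and -0.28 in dorsal horn (difference 0.68, SE 0.12, adjusted p = 0.0385), the smallest difference among the 22.

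Card10 and Lgals2 had the reverse pattern. Card10 is a scaffold protein that links surface receptors to NF-kB in cells other than lymphocytes (chromosome 15, 78775138 to 78803042). Colon levels were 58.4, 52.1 and 59.0 CPM in sham against 34.8, 27.5 and 44.1 CPM in cancer. Dorsal horn sham libraries held 23.7, 22.7 and 18.6 CPM, all below the 30.4, 37.7 and 31.3 CPM of cancer. The difference was -1.28 (SE 0.22, adjusted p = 0.0377). Lgals2, which encodes a galectin of the gut epithelium, lies 47.8 kb away on the same chromosome (78850860 to 78855529). It went from 14, 6.09 and 5.23 CPM in colon sham to 0.437, 0.187 and 1.5 CPM in cancer. Its dorsal horn levels were near the limit of counting, with 26 counts over the 3 sham libraries and 83 over the 3 cancer libraries. The difference was -5.18 (SE 0.95, adjusted p = 0.0499).

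Aim2, a sensor of cytosolic DNA that assembles an inflammasome (chromosome 1, 173350879 to 173466040), had the smallest unadjusted p in the dorsal horn among the 22. Colon libraries held 84.3, 70.7 and 69.0 CPM in sham and 109, 95.2 and 71.8 CPM in cancer, ranges that overlap. Dorsal horn libraries held 11.6, 8.41 and 11.5 CPM in sham and 3.76, 2.76 and 3.40 CPM in cancer, with no overlap. The difference was 1.97 (SE 0.25, adjusted p = 0.00862). Related genes next to Aim2 may share reads with it, which leaves its counts uncertain. It was 1 of 3 tissue-dependent genes, with Trank1 and Rtkn2, that passed when any 1 of the 18 libraries was left out, and 0 of the 22 passed in all the other alternatives.

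Lpo and Psca rose relative to the dorsal horn. Of the 18 tested members of the mucosal defence list, which does not hold Lpo, Psca alone was called. Over all genes tested, 0.0847% were called higher in the colon. In the list, 10 had a positive and 8 a negative difference. The median change was 0.77 in colon and 1.22 in dorsal horn (0.06 with genes at 0 counts set to their bound). Lpo, lactoperoxidase, an enzyme of mucosal secretions that makes antimicrobial oxidants (chromosome 11, 87806428 to 87828289), was at 40.1, 17.0 and 25.4 CPM in colon sham and at 459, 174 and 551 CPM in cancer. In the dorsal horn it was at 8.38, 8.92 and 5.97 against 8.82, 7.5 and 5.46 CPM. The cancer libraries of the colon were all far above sham, and those of the dorsal horn were within its range or just under it (difference 3.93, SE 0.60, adjusted p = 0.0214). Psca, a surface protein of the Ly6 family found on some epithelia (chromosome 15, 74714839 to 74717069), had 9 counts over the 3 colon sham libraries and 1726 over the 3 cancer libraries. The ratio of summed counts, scaled by the summed effective library sizes, was 258, with a 95% counting interval of 135 to 564. Levels in cancer were 13.0, 56.1 and 11.8 CPM. In the dorsal horn the ratio was 1.08 (0.569 to 2.04), and the difference of the fitted changes passed the test (adjusted p = 0.0187). Intervals of this kind cover counting error only.

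Jchain, the joining chain of secreted IgA and IgM (chromosome 5, 88519809 to 88527891), moved the other way. Colon sham libraries held 951, 1135 and 1041 CPM and cancer libraries 259, 174 and 92.3 CPM. Dorsal horn levels lay between 0.926 and 3.70 CPM in all 6 libraries. The difference was -3.35 (SE 0.56, adjusted p = 0.0335). Across the list of B and plasma cell genes, all 18 tested members had a negative difference. Jchain alone passed the test, where 0.0706% of all genes were called lower. At an unadjusted p under 0.05, 5 were lower, against 4.57% of all genes. A negative difference was found for 6459 of all 14164 genes. The median difference of the list was -1.39, beside 0.05 over all genes. It joined a median change of -0.64 in colon with one of 0.57 in dorsal horn, where 16 of the 18 were higher. The colon list means in log2 CPM were 4.51, 4.89 and 3.83 in sham and 4.07, 3.07 and 3.59 in cancer, which overlap. Only 2 of the 18 reached a mean log2 CPM of 1 in both tissues, so the dorsal horn side of this list rests on few counts.

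Metabolic enzymes were also among the tissue-dependent genes. Dgat2, which adds the last fatty acid in triglyceride synthesis (chromosome 7, 99153658 to 99182719), was at 35.5, 22.3 and 40.5 CPM in colon sham and 60.8, 102 and 96.5 CPM in cancer. Dorsal horn levels were 23.0, 24.5 and 27.1 against 18.1, 17.4 and 18.7 CPM, lower in cancer without overlap, although the dorsal horn change alone had an unadjusted p above 0.05. The difference was 1.86 (SE 0.33, adjusted p = 0.0416). Cps1, the first enzyme of the urea cycle (chromosome 1, 67123026 to 67231259), was at 60.5, 28.7 and 9.11 CPM in colon sham, with 3 counts in all over the cancer libraries. The colon ratio, sham over cancer, was 703 (95% counting interval 240 to 3411), whereas the dorsal horn had 8 counts in sham and 20 in cancer (adjusted p of the difference 0.0318).

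Several genes with much higher levels in the dorsal horn, some of them known from neurons, differed through the colon. Their dorsal horn levels hardly moved. Bsn, bassoon, a scaffold of the presynaptic active zone (chromosome 9, 108096022 to 108190384), went from 34.9, 33.1 and 29.2 to 15.5, 19.1 and 12.5 CPM in the colon. Dorsal horn levels were 129, 155 and 140 CPM in sham and 179, 163 and 145 CPM in cancer (difference -1.24, SE 0.20, adjusted p = 0.0318). Sema7a, a membrane-anchored semaphorin that acts in axon growth and on immune cells (chromosome 9, 57940112 to 57962865), rose relative to the dorsal horn. Its colon levels were 13.5, 9.43 and 12.7 CPM in sham and 44.3, 49.8 and 37.0 CPM in cancer, beside 116 to 168 CPM in the 6 dorsal horn libraries (difference 2.08, SE 0.34, adjusted p = 0.0335). Sema7a was the 1 called member among 54 axon guidance genes, where 0.155% of all genes tested were called. Hapln4, a link protein of the matrix around neurons that the naming rule did not select, had a difference of -3.01 (SE 0.43, adjusted p = 0.0187). Kcnj16, an inwardly rectifying potassium channel, had 2 counts over the colon cancer libraries against 289 in sham, while its dorsal horn levels stayed between 72.2 and 84.8 CPM (adjusted p = 0.0499). These falls went against the lists. The difference was positive for 30 of 37 potassium, sodium and calcium channel genes and 22 of 25 neuronal synapse genes, against 7705 of all 14164. The list medians, 0.78 and 1.12, became -0.07 and -0.06 without colon cancer 2.

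Other called genes have general or less specific roles. Cap1, which recycles actin monomers (chromosome 4, 122859047 to 122886056), was at 451, 421 and 479 CPM in colon sham and 815, 858 and 670 CPM in cancer, while the dorsal horn stayed between 200.2 and 225 CPM (difference 0.82, SE 0.15, adjusted p = 0.0481). Zfand3, a zinc finger protein, had a difference of 0.93 (adjusted p = 0.0429). Igf2r, the receptor that carries lysosomal enzymes and clears IGF2 (chromosome 17, 12682406 to 12769664), went from 229, 248 and 261 to 164, 139 and 136 CPM in colon and from 44.2, 44.4 and 50.5 to 52.4, 48.9 and 48.4 CPM in dorsal horn (difference -0.86, SE 0.15, adjusted p = 0.0429). A further 3 had few colon counts. Trank1 had 31 counts in colon sham and 147 in cancer (ratio 6.37, 95% counting interval 4.30 to 9.71), beside 227 to 272 CPM in the dorsal horn (adjusted p = 0.00862). Tchh had 48 and 219 colon counts (ratio 6.13, 4.47 to 8.56, adjusted p = 0.0187). Rtkn2 had 67 colon counts in sham and 0 in cancer, 16.6-fold lower against a floor of 3 counts over the group (lower 95% counting limit 13.2, adjusted p = 0.00862).

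**Figure D2:**
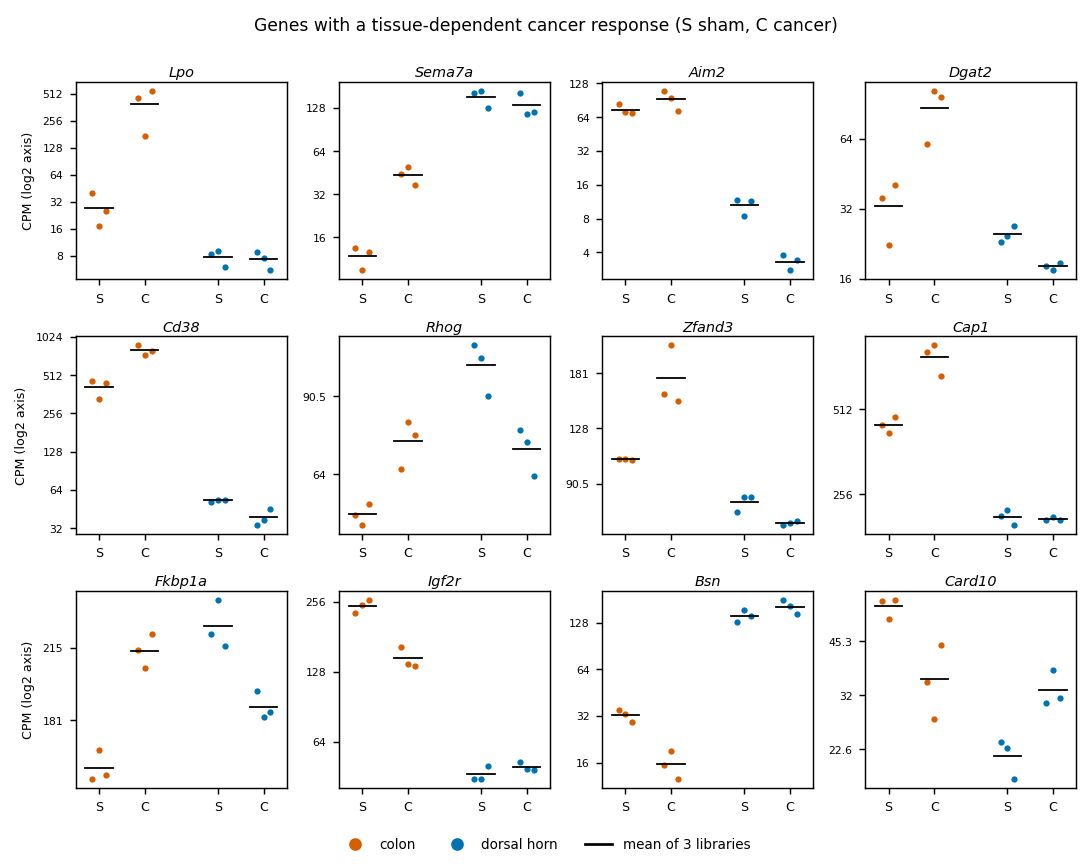
Level in CPM (log2 axis) of the 12 genes with a tissue-dependent response and a mean log2 CPM of 1 or more in both tissues, with 1 point per sham (S) or cancer (C) library and a bar at the mean of 3 libraries, colon in orange and dorsal horn in blue. In 11 of the 12 the colon points of sham and cancer are separate, the exception being Aim2, and in Cd38, Rhog, Fkbp1a and Card10 the 2 tissues move in opposite directions.

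The threshold fell among close values. Lgals2 and Kcnj16 were just inside it with adjusted p = 0.0499, and the mucin Muc1 (difference 2.88) and the lipid carrier Stard4 (difference -1.17) were just outside with adjusted p = 0.0512, a pair named only for this place. Il18, an inflammasome-dependent cytokine, also missed it, with colon levels of 28.5, 46.0 and 39.9 CPM in sham and 212, 138 and 79.6 CPM in cancer, dorsal horn levels of 13.6 to 19.99 CPM, and a difference of 2.15 (SE 0.41, adjusted p = 0.0559). The 22 calls depended on the pooled spread and on single libraries. A limma voom fit with a separate weight for each tissue called 5 genes, 3 of them among the 22. All 5 were higher in the colon and 0 lower, so none of the 10 lower genes passed in that fit. A fit of only the 12 sham and cancer libraries called 4, again with 3 among the 22. DESeq2 called 331, all 22 among them. Leaving out 1 library gave as few as 3 genes (without dorsal horn sham 1, sham 2 or cancer 2) and as many as 93 (without colon cancer 3), and leaving out dorsal horn sham 3 and cancer 3 together left 1, with the nivolumab libraries still in the fit.

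Each gene list had 0 or 1 tissue-dependent member, so the lists are described by the signs and medians of their members. Over all genes tested, 7705 of 14164 differences were positive and 6459 negative. Glucocorticoid-induced genes, which report corticosteroid signalling, had a positive difference in 21 of 22 members, with a median of 1.02 (1.03 in the colon, 0.07 in the dorsal horn). The mean log2 CPM of the list was 5.15, 5.10 and 5.13 in colon sham and 6.30, 7.04 and 5.49 in cancer. In the dorsal horn it was 6.30, 6.11 and 6.89 against 5.61, 6.66 and 6.92, which overlap. No member was called, and 7 of 22 had an unadjusted p under 0.05, against 6.29% of all genes in that direction. Zbtb16, a transcription factor that glucocorticoids induce, had the smallest p of the list, with 2.74, 7.08 and 10.1 CPM in colon sham, 53.8, 94.8 and 42.8 CPM in cancer, 71.1 to 71.6 CPM in dorsal horn sham and 86.4 to 120 CPM in cancer (difference 2.69, SE 0.55, adjusted p = 0.0803).

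Clock genes, whose transcripts cycle over the day, leaned the same way, with 16 of 19 positive and a median of 0.53. Of the 19, 5 were positive at an unadjusted p under 0.05, against 6.29% of all genes. This list rested on colon cancer 2, at a mean log2 CPM of 5.94 against 4.71 to 5.41 in the other colon libraries of the 2 groups, and its median was 0.18 without that library. Hypoxia and glycolysis genes had 23 of 28 positive differences. At an unadjusted p under 0.05, 9 were higher, against 6.29% of all genes, and none were lower. Hk2, hexokinase 2, was at 309, 249 and 336 CPM in colon sham and 796, 627 and 524 CPM in cancer, with 4.17 to 6.17 CPM in the dorsal horn (difference 1.13, adjusted p = 0.181). Neutrophil genes had 12 of 12 positive differences and a median of 4.07, or 3.60 with genes at 0 counts set to their bound, although colon cancer 3 was at -0.99 in mean log2 CPM, near the -2.30 to -1.20 of sham, and cancer 1 and 2 at 1.12 and 2.98. Without colon cancer 2 the median was 1.86. Neuronal synapse genes had a median of 1.12 that became -0.06 without colon cancer 2.

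Red blood cell genes had a positive difference in 6 of 6 members, with a median change of 0.68 in colon, which became -0.26 without colon cancer 1, and -2.66 in dorsal horn. Their mean log2 CPM was 6.49, 5.64 and 6.33 in dorsal horn sham and 3.60, 4.38 and 3.36 in cancer, without overlap. The haemoglobin gene Hbb-bs, which may share reads with its near copies, held 484, 299 and 383 CPM in dorsal horn sham and 52.8, 82.4 and 40.6 CPM in cancer, beside 9.48 to 19.2 and 8.35 to 28.2 CPM in the colon (difference 2.85, SE 0.79, adjusted p = 0.201). Whether blood left in the tissue differed between the groups was not tested. Central myelin genes had a positive difference in 13 of 13 members, with medians of 0.39 in colon and -0.73 in dorsal horn. The difference was positive at an unadjusted p under 0.05 for 4, against 6.29% of all genes. Only 5 of the 13 reached a mean log2 CPM of 1 in both tissues. The list mean in the colon was 0.13 to 0.80 in sham and 0.73 to 1.51 in cancer, so its colon side rests on few counts. Without colon cancer 2 the colon median was 0.11. Cnp, a myelin enzyme, was at 1447, 1488 and 983 CPM in dorsal horn sham and 1085, 973 and 646 CPM in cancer. Its colon levels were 57.6, 62.0 and 63.4 against 94.4, 83.8 and 61.3 CPM (difference 0.92, SE 0.30, adjusted p = 0.294).

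Cell cycle genes leaned negative in both tissues and more so in the colon, with a negative difference in 26 of 31 members and medians of -1.05 and -0.27. In the colon, the list mean in log2 CPM was 5.70 to 6.03 in sham and 5.37, 2.85 and 5.22 in cancer, lowest in cancer 2. Without that library the median difference was -0.36 in place of -0.77. The colon median was -0.61 or lower whichever library was left out. Dorsal horn list means were 1.68 to 1.92 in sham and 1.25 to 1.48 in cancer, without overlap. Oxidative phosphorylation genes had a median difference of -0.01, with 32 of 41 lower in the colon and 37 lower in the dorsal horn. Macrophage and microglial genes had a median difference of -0.02 over 22 members, with medians of -0.26 and -0.24 in the 2 tissues. In neither list did any member's difference have an unadjusted p under 0.05. Interferon response genes had a median of 0.05, equal to that of all genes after rounding. The directions given here for lists held under the 3 other scalings of the libraries, except the near-zero medians, which ranged from -0.06 to 0.00 for oxidative phosphorylation.

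**Figure D3:**
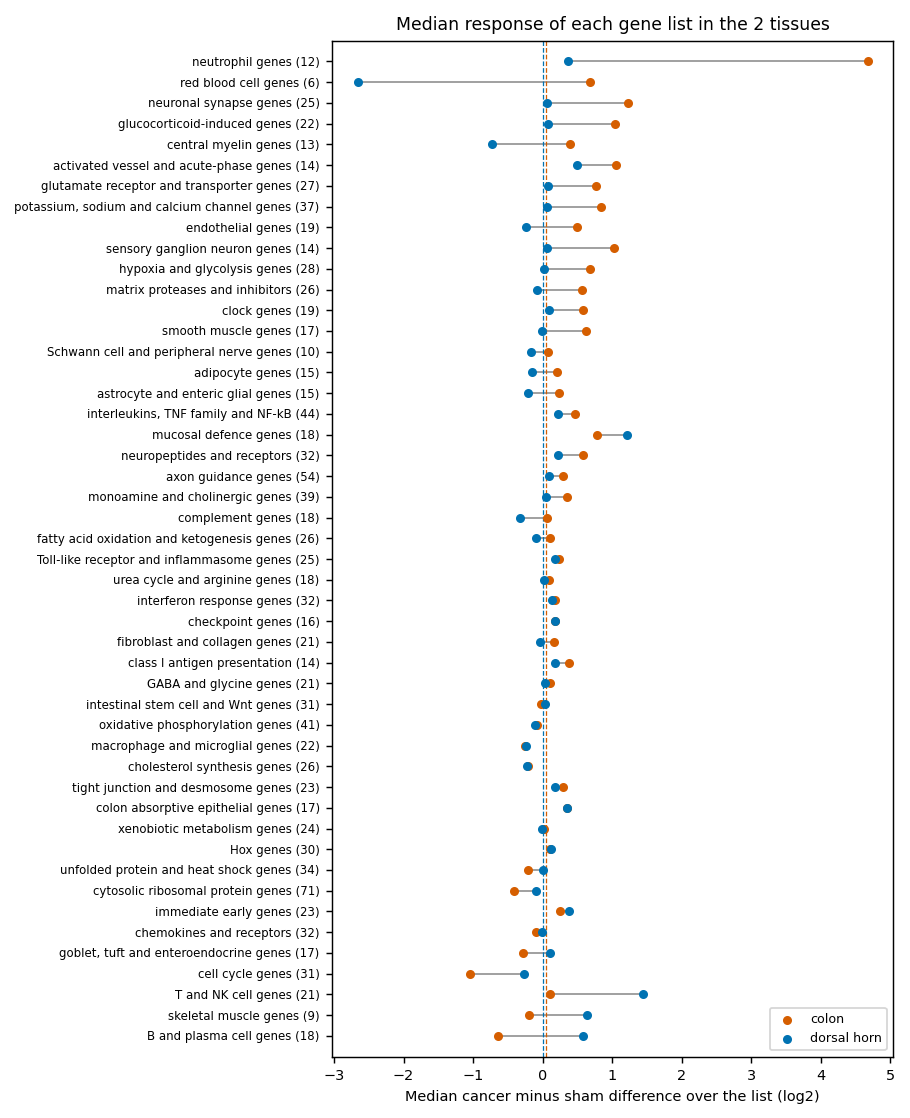
Median log2 change from sham to cancer over the tested members of each of the 48 gene lists (number tested in brackets), in the colon (orange) and the dorsal horn (blue), ordered by the median difference between tissues. Dashed lines mark the medians over all genes tested, 0.05 in colon and 0.01 in dorsal horn, and the widest gaps are those of the neutrophil and red blood cell lists.

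Genes that moved the same way in both tissues were called where the mean of the 2 changes had an adjusted p under 0.05, each tissue had an unadjusted p under 0.05 in the same direction, and the difference between tissues was not called. This held for 30 genes, 0.212% of those tested, of which 17 rose (0.12%) and 13 fell (0.0918%). The mean alone passed for 73 genes, and 43 of those were set aside, 29 because the dorsal horn had p of at least 0.05. Cancer and sham libraries did not overlap in either tissue, in the same direction, for 26 of the 30 against 1.82% of all genes, a share that the rule itself raises. The change was larger in the colon for 26 of the 30.

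Of the 13 falling genes, 5 encode proteins of the cytosolic ribosome, the machine that translates messenger RNA: Rpl29, Rpl3 and Rpl34 of the large subunit, Rplp0 of its stalk and Rps7 of the small subunit. RefSeq promoters of GRCm38.p6 were found for 3 of the 5. They are printed because these genes moved together in both tissues, from 60 bases before the annotated start to 20 bases from it, 5′ to 3′ on the gene's strand. Capitals mark CTTCCG, whose complement CGGAAG holds the core bound by ETS factors.
Rpl34, first start, chr3:130730318-130730397, minus strand: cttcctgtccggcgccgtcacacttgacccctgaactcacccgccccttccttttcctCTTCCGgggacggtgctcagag
Rpl34, second start, chr3:130730379-130730458, minus strand: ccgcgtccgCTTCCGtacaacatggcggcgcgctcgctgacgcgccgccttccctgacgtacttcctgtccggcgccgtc
Rps7, chr12:28635934-28636013, minus strand: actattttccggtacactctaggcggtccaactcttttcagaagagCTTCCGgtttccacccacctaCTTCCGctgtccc
Rplp0, chr5:115559407-115559486, plus strand: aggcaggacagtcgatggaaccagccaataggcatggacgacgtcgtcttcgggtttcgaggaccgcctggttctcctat
CTTCCG was searched on both strands over 300 bases (250 before to 50 after the start), and a gene counted once if any of its promoters matched. It was in 2 of these 3 genes and in 39 of 56 listed ribosomal protein genes with a promoter (69.6%). The share was 8 of 20 (40.0%) for the genes that moved the same way and 18.8% for all 27025 genes with a promoter. A match is a description of the letters and not a binding site.

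The 5 ribosomal protein genes fell in all 6 cancer libraries relative to all sham libraries of the same tissue. Rpl29 (chromosome 9, 106429454 to 106431568) was at 460, 488 and 541 CPM in colon sham and 223, 191 and 254 CPM in cancer. Dorsal horn levels were 139, 140 and 144 CPM in sham and 121, 73.4 and 76.4 CPM in cancer, with cancer 1 closest to sham. The mean log2 change was -0.90 (SE 0.12, adjusted p = 0.00499). Rpl3 (chromosome 15, 80077791 to 80091868) was at 774, 804 and 857 against 438, 389 and 608 CPM in colon and at 457, 420 and 506 against 329, 264 and 296 CPM in dorsal horn (mean change -0.70, SE 0.10, adjusted p = 0.00659). Rplp0 had nearly equal changes, -0.66 in colon and -0.65 in dorsal horn (adjusted p of the mean 0.0323). Rps7 changed by -0.80 and -0.39 (adjusted p = 0.00837), and Rpl34, which the naming rule did not select, by -0.58 and -0.39 (adjusted p = 0.0333). Ribosomal protein genes have many processed copies in the genome, so their counts are uncertain.

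These 5 of 71 tested list members, beside 13 shared falls among all 14164 genes (0.0918%), stood within a list that leaned one way in the colon. All 71 tested ribosomal protein genes had a negative colon change and 64 a negative dorsal horn change, with medians of -0.42 and -0.09. Of all 14164 genes tested, 6384 had a negative change in colon and 6757 in dorsal horn. At an unadjusted p under 0.05, 52 of the 71 were lower in colon, against 8.56% of all genes, and 6 in dorsal horn, against 1.85%. The difference between tissues was negative for 69 of 71, with a median of -0.29, and 19 had an unadjusted p under 0.05 in that direction against 4.57% of all genes, though 0 were called. The mean log2 CPM of the list was 8.80, 8.86 and 8.96 in colon sham and 8.43, 8.28 and 8.67 in cancer, without overlap. The dorsal horn means were 7.21, 7.10 and 7.29 against 7.05, 7.08 and 7.10. Under the other scalings the median difference ran from -0.35 to -0.28.

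Wdfy1 was the gene with the most stable shared rise. It encodes an endosomal protein that recruits the adaptor TRIF to Toll-like receptors (chromosome 1, 79702262 to 79776143). Colon sham libraries held 35.9, 25.3 and 38.3 CPM and cancer libraries 81.8, 90.5 and 91.5 CPM. In the dorsal horn the values were 27.7, 26.8 and 30.4 against 66.3, 64.4 and 59.6 CPM, again with a clear gap. The changes were 1.41 and 1.16, with a mean of 1.29 (SE 0.15, adjusted p = 0.00399) and a difference between tissues of 0.24 (95% interval -0.41 to 0.89). Wdfy1 alone of the 30 passed in all 12 alternative analyses that could give its mean change, with a largest adjusted p of 0.0285, and it also passed without any 1 library.

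Class I antigen presentation genes had 1 shared rise among 14, and the 32 interferon response genes had 0, beside 17 of all 14164 genes (0.12%). At that share, 0 among 32 tells little about the list. Tap2, a subunit of the peptide transporter that loads class I MHC molecules (chromosome 17, 34203527 to 34216321), was at 98.6, 96.0 and 82.0 against 176, 199 and 160 CPM in colon and at 14.1, 11.4 and 14.3 against 15, 18.6 and 23.0 CPM in dorsal horn, where cancer 1 lay just above sham (mean change 0.73, SE 0.15, adjusted p = 0.0479). Sp140, a nuclear body protein of leukocytes (chromosome 1, 85600378 to 85645037), was at 25.0, 27.6 and 19.3 against 43.3, 51.6 and 32.9 CPM in colon and 3.26, 2.62 and 3.26 against 6.96, 5.15 and 5.76 CPM in dorsal horn (mean change 0.90, adjusted p = 0.0298). Sp140 has related copies nearby that may share reads. Tnip1, an inhibitor of NF-kB signalling (chromosome 11, 54910785 to 54962917), changed by 0.80 and 0.38 (adjusted p of the mean 0.035). Ifnlr1, the receptor chain for type III interferon (chromosome 4, 135686287 to 135708181), changed by 0.58 and 0.76 (adjusted p = 0.0483).

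Lyrm7, an assembly factor of mitochondrial complex III (chromosome 11, 54826866 to 54860916), was at 4.49, 4.91 and 6.58 against 24.0, 9.76 and 16.5 CPM in colon and 13.3, 14.4 and 12.3 against 21.5, 33.6 and 19.1 CPM in dorsal horn (mean change 1.27, SE 0.21, adjusted p = 0.013). Riok3, an atypical kinase of the small ribosomal subunit's assembly and of interferon signalling (chromosome 18, 12128741 to 12157387), changed by 0.74 and 0.64 (mean 0.69, SE 0.10, adjusted p = 0.00659), with a difference of 0.09 (95% interval -0.34 to 0.52). A further 3 rises were those of genes for DNA-binding proteins. Jrk, named for an epileptic mouse line, changed by 1.34 and 0.75 (adjusted p of the mean 0.015), and the zinc finger gene Zfp612 by 0.64 and 0.46 (adjusted p = 0.015). Zfp868 changed by 1.58 in colon and 0.53 in dorsal horn, where cancer 1 at 12.3 CPM lay within the 12.3 to 13.0 CPM of sham, and the 95% interval of its difference, 0.42 to 1.68, excludes 0.

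The other 7 rises were outside the naming rule. Masp2, a protease of the lectin pathway of complement, had 7 counts in colon sham and 76 in cancer (ratio 14.6, 95% counting interval 6.74 to 37.5) and 30 and 273 counts in the dorsal horn (ratio 8.94, 6.12 to 13.5). Its adjusted p was 0.0483. Fam227b had 0 counts in colon sham and 18 in cancer, 8.06-fold higher against a floor of 3 counts over the group (lower 95% counting limit 5.90). Its dorsal horn libraries overlapped. Pcdhb7, Ttc22, Tmem253, Poldip3 and Zdhhc18 had adjusted p-values of the mean between 0.035 and 0.0489.

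The 2 largest falls outside the ribosome were those of Acp1 and Lars2. Acp1, a low-molecular-weight tyrosine phosphatase (chromosome 12, 30893326 to 30911589), was at 79.8, 72.5 and 84.0 CPM in colon sham and 23.4, 20.8 and 52.8 CPM in cancer. Dorsal horn libraries held 77.0, 70.0 and 77.9 CPM in sham and 45.4, 32.3 and 35.3 CPM in cancer. Sham levels of the 2 tissues were close, and every cancer library was below them (mean change -1.14, SE 0.18, adjusted p = 0.0123). Lars2, which charges mitochondrial tRNA with leucine (chromosome 9, 123366927 to 123462666), was at 187, 136 and 210 against 113, 72.8 and 77.5 CPM in colon and 230, 285 and 253 against 85.1, 148 and 94.1 CPM in dorsal horn (mean change -1.12, SE 0.17, adjusted p = 0.00827). It was 1 of 4 of the 30 whose change was larger in the dorsal horn.

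Insig1, which holds back sterol synthesis when cholesterol is plentiful (chromosome 5, 28071363 to 28078662), was at 158, 184 and 96.3 against 68.3, 74.5 and 74.5 CPM in colon and 165, 150 and 180 against 108, 98.7 and 134 CPM in dorsal horn (mean change -0.78, SE 0.14, adjusted p = 0.0298). Among 26 cholesterol synthesis genes it was the 1 called, beside 13 shared falls among all 14164 genes (0.0918%). Of the 26, 19 had a negative change in both tissues, with medians of -0.22 in each, beside 0.05 and 0.01 over all genes. Of all 14164 genes tested, 3333 had a negative change in both tissues. Npc2, the lysosomal protein that hands cholesterol on for export (chromosome 12, 84754562 to 84773152), was at 295, 361 and 312 against 192, 155 and 166 CPM in colon and 168, 164 and 140 against 122, 119 and 106 CPM in dorsal horn (mean change -0.68, SE 0.09, adjusted p = 0.00499). Its fall was larger in the colon by 0.47 (95% interval of the difference -0.87 to -0.08). Further falls were those of Snx22, a sorting nexin (mean change -0.63, adjusted p = 0.00659), Ublcp1, a phosphatase that acts on the proteasome (-0.61, adjusted p = 0.00499), and Entpd4, a nucleotidase of the Golgi with a near-identical copy (-0.64, adjusted p = 0.023). Cisd2, an iron-sulfur protein outside the naming rule, had a mean change of -0.41 (adjusted p = 0.0483).

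**Figure D4:**
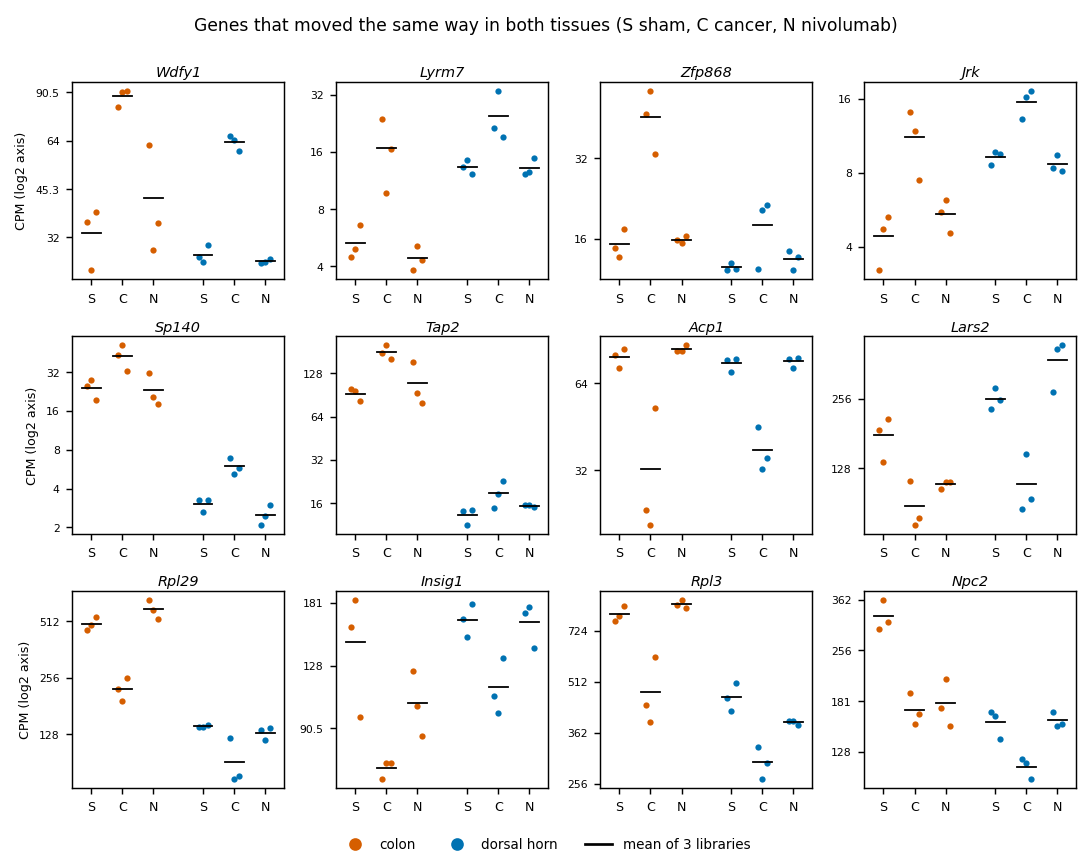
Level in CPM (log2 axis) of the 6 largest mean rises and 6 largest mean falls among genes that moved the same way and had a mean log2 CPM of 1 or more in both tissues, with 1 point per sham (S), cancer (C) or nivolumab (N) library and a bar at the mean of 3 libraries, colon in orange and dorsal horn in blue. Sham and cancer points are separate in both tissues for 11 of the 12, the exception being Zfp868 in the dorsal horn.

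In the nivolumab group, libraries overlapped sham and not cancer in both tissues for 13 of the 30 genes, against 1.91% of all genes, a count that the choice of genes with separate cancer and sham libraries raises. For Wdfy1 the nivolumab levels were 62.2, 29.2 and 35.6 CPM in the colon, where the first lies between the 2 groups, and 26.7, 26.9 and 27.5 CPM in the dorsal horn. In the colon alone this held for 22 of the 30 (11% of all genes), and in the dorsal horn for 17 (17%). All 3 dorsal horn nivolumab libraries were high in ganglion genes, whose part in this was not tested.

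A missed test of the difference does not show equal responses. The 95% interval of the difference between tissues lay within 1 log2 unit on either side of 0 for 18 of the 30 genes (60%), against 45.1% of all genes tested. The rule for these genes favours a small difference and a small spread, so it raises this share itself. It included 0 for 23 and excluded it for 7. Like the tissue-dependent calls, the 30 depended on single libraries: the count was 11 without colon sham 1 or dorsal horn cancer 2, 78 without colon cancer 3 and 18 when only the 12 libraries were fitted. There were 10 genes that passed whichever 1 of the 18 libraries was left out, namely Wdfy1, Riok3, Zfp868, Lars2, Rpl29, Rpl3, Rps7, Npc2, Snx22 and Ublcp1, but leaving out dorsal horn sham 3 and cancer 3 together left 1.

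**Figure D5:**
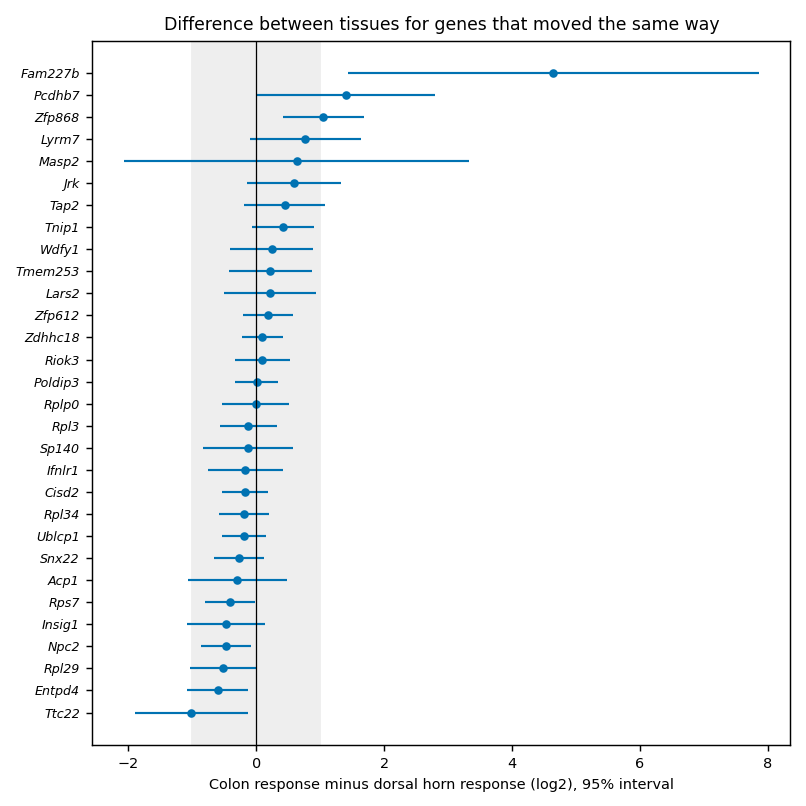
Difference between the colon and dorsal horn changes (log2, point) with its 95% interval (line) for each of the 30 genes that moved the same way in both tissues. The grey band spans 1 log2 unit on either side of 0, and 18 of the 30 intervals lie inside it, while those of Fam227b, Masp2 and Pcdhb7, genes with low colon counts, are the widest.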

How the data were processed

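The deposited values were whole-number counts per gene made by the authors, in 1 table per tissue with no normalisation. FastQC 0.11.5, Trimmomatic, HISAT2, StringTie and GRCm38 are named in the submitters' processing notes, whereas the sources used here do not name the counting tool, strand setting or annotation, so reads of overlapping or antisense genes may be mixed. The tables were joined by symbol, and 14142 of the tested symbols were matched to GENCODE coordinates of GRCm38. One edgeR 4.0.16 quasi-likelihood model (R 4.3.3, robust, TMM scaling, default filter by group) had 6 group means over 18 libraries, with no covariate, two-sided tests and a threshold of 0.05. Levels in log2 CPM used a prior count of 2. No 2 libraries of a group agreed within sampling noise. The steps were checked on simulated data. Alternatives used limma 3.58.1 and DESeq2 1.42.0.

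The comparison, the 48 gene lists and the rule for named genes were chosen with earlier results of these data known. The rule took the 10 most positive and 10 most negative called differences, with a mean log2 CPM of 1 or more in both tissues and no overlap in the tissue with the larger change, and up to 5 of each sign below that level. It took the 10 largest mean rises and falls among genes that moved the same way, all genes with opposite changes, and in each list up to 4 called members or 2 with the smallest p. Other called genes are said to be outside it. One called gene is counted but not reported here.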

Additional observations from a re-analysis of the deposited data

Results flagged for a closer look

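The 21 genes below stand out because the difference between the colon and dorsal horn responses itself passed edgeR's test, with positive log2 differences higher in the colon. Among genes with a mean log2 CPM of 1 or more in both tissues, the positive differences were those of Lpo (3.93), Sema7a (2.08), Aim2 (1.97), Dgat2 (1.86), Cd38 (1.41), Rhog (1.00), Zfand3 (0.93), Cap1 (0.82) and Fkbp1a (0.68), and the negative ones those of Card10 (-1.28), Bsn (-1.24) and Igf2r (-0.86). Genes under that level in 1 or both tissues were Psca (7.84), Trank1 (2.52) and Tchh (2.39) on the positive side. On the negative side they were Cps1 (-10.53), Rtkn2 (-7.36), Kcnj16 (-6.55), Lgals2 (-5.18), Jchain (-3.35) and Hapln4 (-3.01). Fitted values of genes with counts at or near 0 in a group depend on the prior count and are no bounds.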

How the results depend on the processing

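The counts of called genes, 22 tissue-dependent and 30 moving the same way, depended on the model of the spread and on single libraries. Tissue-dependent genes numbered 12 when a mean log2 CPM of 1 in each tissue was required and 4 with only the 12 sham and cancer libraries. They numbered 331 with DESeq2 and 5 with limma voom weights per tissue, all 5 higher in the colon. Without dorsal horn sham 3 and cancer 3 there was 1. Genes moving the same way numbered 18 with the 12 libraries, 110 with DESeq2 and 1 without dorsal horn sham 3 and cancer 3. Both counts stayed within 1.5 times under the 3 other scalings, without a filter and with ganglion genes as a covariate. Leaving out 1 library gave 3 to 93 tissue-dependent genes and 11 to 78 genes moving the same way. With the replicate number as a block there were 11 tissue-dependent genes, and 0 with a replicate block of treatment and number across tissues (1104 at an unadjusted p under 0.05, edgeR). With that pairing as a random block in limma, chosen after seeing the data, there were 11. Same-numbered libraries had correlations of their deviations from -0.111 to 0.0150 across tissues and from -0.206 to 0.482 between sham and cancer of a tissue, so not every pair deviated together and the numbers were not taken as pairing. Among 127 named genes, 3220 of 3868 re-fits kept direction and side of the threshold, and 3 changed sign: over single left-out libraries the interaction of Grin2c ran from -0.0497 (without colon cancer 2) to 5.35, the interaction of Mylpf from -2.37 to 0.33 (without dorsal horn cancer 2) and the interaction of Pvalb from -3.50 to 0.10 (without colon sham 2). The cause was not tested. Genes under about 100 counts in a group are limited by depth.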

Other observations

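Of 51 genes called in either class, 4 pairs lay within 1000 kb of each other on a chromosome, a pattern looked for after the data were seen and not tested. Card10 and Lgals2 (chromosome 15, 47.8 kb apart) were both lower in colon cancer and higher in dorsal horn cancer. Lyrm7 and Tnip1 (chromosome 11, 49.9 kb apart) both rose in the 2 tissues. The other pairs each joined a tissue-dependent gene with one that moved the same way. Jrk and Psca (chromosome 15, 5.3 kb apart) both rose in the colon, and only Jrk was called as also rising in the dorsal horn. Zfp868 and Hapln4 (chromosome 8, 458 kb apart) moved in opposite directions in the colon.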
